A study of Homo sapiens with 24 samples.

Results

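LNCaP and PC3 are human prostate cancer cell lines, LNCaP established from a lymph node metastasis and PC3 from a bone metastasis. The baseline difference between them was measured in 6 of the 24 RNA-seq libraries of a study of Acetalax, a drug tested there on lines described as rich in the channel TRPM4. The 6 libraries were the 3 LNCaP parental controls and the 3 PC3 parental controls, chosen by their labels and not by any measured value. Both groups were untreated cells that had never been under chronic drug selection. LNCaP was grown in RPMI-1640 and PC3 in F-12, each with 10% fetal bovine serum and 1% penicillin–streptomycin, so line and medium cannot be told apart in any value below. The labels give every library the same batch. They call the 3 libraries of a group biological triplicates but name no separate cultures. The p-values below therefore reflect the spread among 6 samples, part of which may be technical, and differences in how many cells of a state were present cannot be told apart from differences in RNA per cell.

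LNCaP is known as a luminal-type line that responds to androgen, the steroid hormone that in prostate epithelium drives genes of secretion such as the kallikrein proteases. PC3 is known as an androgen-independent line that grows with strong integrin, growth factor receptor and cytokine programs. As further background, PC3 carries a deletion at CTNNA1 and LNCaP a rearranged ETV1. Levels are given as TPM, an abundance of transcripts scaled for length and depth, and differences as the log2 fold change of RSEM expected counts, LNCaP minus PC3, with its standard error. Benjamini-Hochberg adjusted p-values come from edgeR's quasi-likelihood test on these 6 libraries unless another tool is named, and a gene was called at an adjusted p under 0.05.

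Most of the transcriptome differed. Of 18714 genes tested, 13537 (72.3%) were called, 6854 (36.6%) higher and 6683 (35.7%) lower in LNCaP. At least 2-fold differences were called for 9676 genes (51.7%), and differences of at least 32-fold for 2242 (12.0%). The TPM ranges of the 2 lines did not overlap for 14203 of the tested genes (75.9%). Against this background a call by itself says little about a gene, and the sizes of the differences carry the description that follows. Counts of called genes in the lists below are to be read against the same shares, 36.6% higher and 35.7% lower.

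**Figure D1:**
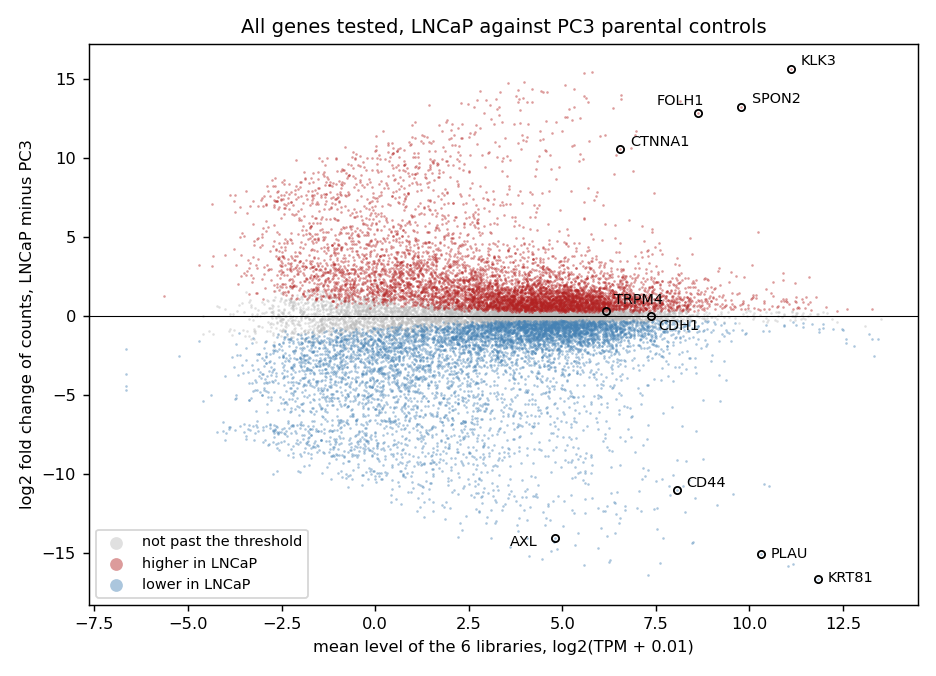
Log2 fold change of counts (vertical axis, LNCaP minus PC3) against the mean level of the 6 libraries (horizontal axis, log2 of TPM + 0.01) for every gene tested, except those of chromosome Y and XIST. Each point is a gene, red where called higher in LNCaP, blue where called lower and grey otherwise, and KLK3 at 15.60 and KRT81 at -16.65 lie near the extremes while CDH1 lies at 0.02.

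The genes with the widest separation, taken by a fixed rule of fold or level, were of many kinds. On the LNCaP side CKB, the brain-type creatine kinase, was at 2681, 1415 and 2868 TPM against 77.1, 67.2 and 87.2 TPM in PC3 (5.30 ± 0.27). PRKD1, a protein kinase D gene (10.81 ± 0.36), TNFRSF10D, a decoy receptor for TRAIL (9.83 ± 0.45), and FOXRED2, an oxidoreductase of the endoplasmic reticulum (9.40 ± 0.27), were near absent from PC3. NETO1, an accessory subunit of kainate receptors (5.72 ± 0.12), PRKACB, a catalytic subunit of protein kinase A (5.34 ± 0.19), and CENPN, a centromere protein gene (5.50 ± 0.18), were expressed in both lines.
On the PC3 side GPRC5A, an orphan receptor gene, was at 387, 350 and 370 TPM against 0.2, 0.07 and 0.08 TPM in LNCaP (-13.47 ± 0.39). ANPEP, the aminopeptidase N gene, differed by -12.33 ± 0.44, APOBEC3C, a cytidine deaminase gene, by -12.40 ± 0.34, and the adhesion receptor gene ADGRF1 by -12.27 ± 0.41. Secreted factors of the TGF-beta family were among them, INHBA with -12.03 ± 0.38 and TGFB2 with -12.00 ± 0.40. THBS1, a matrix glycoprotein gene (-5.38 ± 0.38), LXN, a carboxypeptidase inhibitor (-11.98 ± 0.41), and LGALS1, a galectin (-9.03 ± 0.24), were abundant in PC3, at 1157, 1112 and 865 TPM.

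Totals of expected counts were 43440476 to 53268294 in the LNCaP libraries and 40160832 to 45374065 in PC3. LNCaP control 2 stood apart from its group. Of 10987 genes with a group mean of at least 5 TPM, 110 lay over 4-fold (on TPM + 1) from both other LNCaP controls in that library, 102 of them below, against 21 to 36 genes in each of the other 5 libraries. Line markers mostly went with the labels. Of 15 LNCaP markers 12 were higher in LNCaP, the epithelial genes EPCAM (-1.90 ± 0.13) and KRT18 (-0.98 ± 0.13) were lower and CDH1 did not pass, and all 15 PC3 markers were lower in LNCaP. Of 26 fibroblast, endothelial and immune markers 11 passed the filter on low counts, 4 of them higher in LNCaP and 6 lower. The differences of these 11 ranged from -8.88 to 8.69. At least 2-fold differences were called for 10 of them, where 51.7% of all genes had such a call. The 26 summed to 15.3 to 33.4 TPM in LNCaP and 70.0 to 88.5 TPM in PC3. The genes PTPRC, CDH5 and FAP were among those that did not pass. PTPRC stood at 0.0 TPM in LNCaP and 0.127 TPM in PC3.

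Transcription factor genes known from prostate epithelium were higher in LNCaP but not absent from PC3. The posterior homeobox gene HOXB13 was at 267, 254 and 254 TPM in the 3 LNCaP controls and at 20.0, 17.3 and 20.1 TPM in the 3 PC3 controls, or 258 ± 7.82 and 19.1 ± 1.6 TPM (SD, n = 3). The difference was 3.74 ± 0.13 (adjusted p = 2.51e-07), and the groups did not overlap. FOXA1, a pioneer factor that opens chromatin in luminal cells, was at 297, 258 and 292 TPM in LNCaP and 50.3, 53 and 48.3 TPM in PC3 (2.35 ± 0.10, adjusted p = 7.4e-07). GATA2, a zinc finger factor of the same cells, differed by 3.02 ± 0.15.

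Of 30 lineage transcription factor genes tested, 13 were higher in LNCaP and 15 lower. The side higher in PC3 held GATA3, a zinc finger factor, with 0 counts over the LNCaP libraries and 3040 over PC3, at least 1185-fold lower in LNCaP. RUNX1, a runt domain factor, stood at 0.767 and 42.6 TPM in LNCaP and PC3 (-6.12 ± 0.21), and SOX9, an HMG box factor of progenitor cells, at 1.44 and 48 TPM (-5.08 ± 0.14). NR3C1, the glucocorticoid receptor gene, was lower in LNCaP, at 0.33, 0.07 and 0.47 TPM against 14.4, 15.2 and 13.4 TPM in PC3 (-5.57 ± 0.51, adjusted p = 3.69e-05). FOSL1, an AP-1 subunit, stood at 0.05, 0.34 and 0.48 TPM in LNCaP and 164, 139 and 166 TPM in PC3 (-9.53 ± 0.38). The neuroendocrine factor NEUROD1 and the basal factor TP63 did not pass the filter in these libraries.

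**Figure D2:**
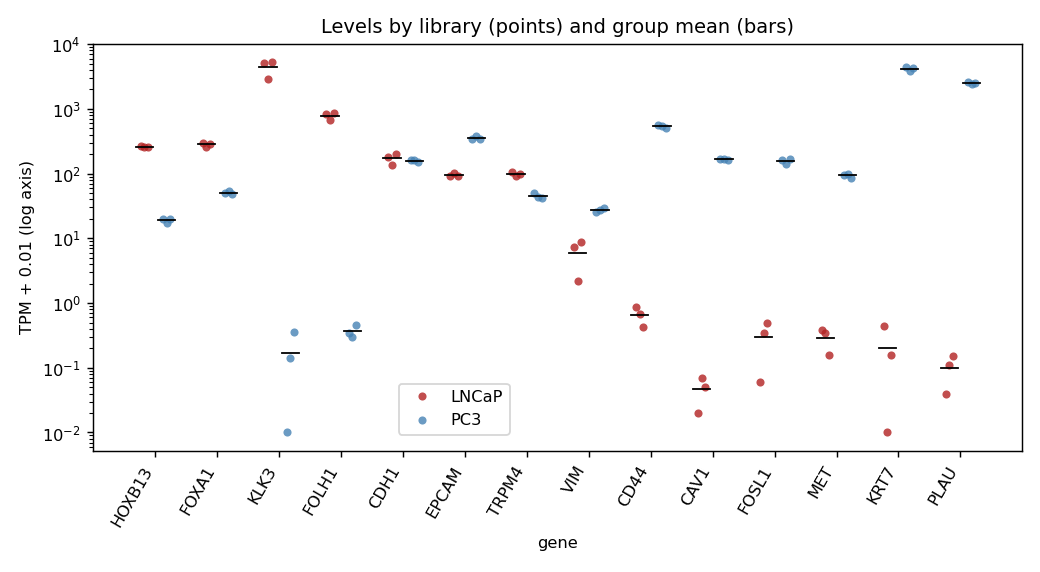
TPM + 0.01 on a log axis for 14 lineage genes, with each library as a point (red LNCaP, blue PC3) and the group mean as a black bar. KLK3 and FOLH1 separate upward and CD44, CAV1 and PLAU downward by orders of magnitude, while CDH1 overlaps between the lines.

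Genes known for androgen response or luminal secretion were mostly higher in LNCaP. Of 44 such genes tested (44 in the list), 34 were higher and 6 lower, where 36.6% and 35.7% of all genes were, with a median difference of 4.03 against 0.03 over all genes tested. KLK3, which encodes prostate-specific antigen (ENSG00000142515.15, chromosome 19, 50854915 to 50860764, GRCh38), was measured at 5057, 2921 and 5219 TPM in LNCaP and 0.0, 0.13 and 0.35 TPM in PC3. The difference was 15.60 ± 0.53 (adjusted p = 2.39e-07), with the lowest LNCaP library being control 2. KLK2, a neighbouring kallikrein of similar sequence, gave 647, 385 and 669 TPM against 0.01, 0.0 and 0.07 TPM (13.58 ± 0.46). FOLH1, the gene of prostate-specific membrane antigen, gave 836, 676 and 851 TPM against 0.34, 0.29 and 0.45 TPM (12.83 ± 0.28). SPON2, a secreted matrix protein gene, had among the largest folds of all genes with at least 10 counts in the lower group, at 1693, 1874 and 1677 TPM against 0.1, 0.16 and 0.21 TPM (13.20 ± 0.26). TMPRSS2, a membrane protease whose promoter responds to androgen, was not silent in PC3, at 370 and 15.3 TPM (4.65 ± 0.20). FKBP5, a chaperone gene that responds to androgen and glucocorticoid, differed by 4.12 ± 0.14, and STEAP1, a membrane protein of the prostate, by 3.91 ± 0.14.

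Not all members of that list were higher in LNCaP. STEAP4 stood at 0.293 TPM in LNCaP and 37.8 TPM in PC3 (-6.94 ± 0.17), ALDH1A3, a retinaldehyde dehydrogenase, at 89.2 and 1074 TPM (-3.71 ± 0.39), and PMEPA1, a TGF-beta pathway inhibitor, at 122 and 320 TPM (-1.57 ± 0.16). KRT8, a keratin of simple epithelia, was alike in level at 409 ± 64.6 and 441 ± 41.6 TPM and did not pass (adjusted p = 0.384).

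The bases upstream of the kallikrein pair are shown because KLK3 and KLK2 were among the largest luminal differences. Both are RefSeq sequences on GRCh38.p14, 250 bases before the annotated start, plus strand, 5′ to 3′. KLK3 is chr19:50854665-50854914 and KLK2 is chr19:50873189-50873438. Capitals mark, in KLK3, a 15-base match to a relaxed androgen response element (AGNACA, then 3 bases and NGTNCT) and, in KLK2, the stretch closest to that match. The relaxed form was chosen after the KLK3 sequence was seen.
KLK3: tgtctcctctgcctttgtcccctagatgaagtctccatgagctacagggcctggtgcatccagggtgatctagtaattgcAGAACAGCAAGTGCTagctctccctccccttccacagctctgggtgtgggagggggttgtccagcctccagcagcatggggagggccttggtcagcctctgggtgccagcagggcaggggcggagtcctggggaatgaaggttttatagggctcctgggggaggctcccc
KLK2: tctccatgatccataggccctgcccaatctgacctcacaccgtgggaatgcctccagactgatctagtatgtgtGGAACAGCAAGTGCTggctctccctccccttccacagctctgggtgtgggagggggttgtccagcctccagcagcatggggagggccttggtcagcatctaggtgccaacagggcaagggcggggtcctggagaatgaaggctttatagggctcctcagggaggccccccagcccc
The KLK3 match lay 170 to 156 bases before the start. The KLK2 stretch lay 176 to 162 bases before its start and differed from it only by A1G, counted from the 5′ end of the KLK3 match, which puts it outside the relaxed letters. Over 29 list members with a promoter in the table, 1 (3.45%) held the relaxed form on either strand, against 55 of 27305 promoters in all (0.201%). The stricter element (AGNACA, then 3 bases and TGTNCT) was found in 0 of the 29 and in 15 of 27305 (0.0549%). The single repeat AGAACA was found in 1 of the 29 (3.45%), again KLK3 and inside the relaxed match, and in 3397 of all promoters (12.4%). These shares describe letters in 250 bases only.

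Enzymes that conjugate androgens were among the most line-restricted genes. Of 23 steroid-metabolising genes tested, 14 were higher in LNCaP and 5 lower. UGT2B11 had 7685 counts in LNCaP and 0 in PC3, at least 2190-fold higher. UGT2B17 had 19225 against 1 count, a ratio of 16435 (95% interval 2949 to 649184), which covers counting error only, as do all such intervals and limits here. These glucuronosyltransferase genes are near-identical in parts, so the division of reads among them is uncertain. SLCO1B3, an uptake transporter that carries steroids, went the other way, at 0.0267 and 11.5 TPM in LNCaP and PC3 (-8.63 ± 0.46).

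Keratin and S100 genes were among those with large differences toward PC3. KRT81, a hair keratin, stood at 7866, 5824 and 8142 TPM in PC3 and 0.11, 0.07 and 0.02 TPM in LNCaP (-16.65 ± 0.43, adjusted p = 1e-07). It has a close relative in KRT86, which was also high in PC3 (169 TPM), so their shared reads are uncertain. KRT7, a simple epithelial keratin, stood at 4439, 3799 and 4323 TPM in PC3 and 0.43, 0.0 and 0.15 TPM in LNCaP (-15.79 ± 0.47). The calcium-binding protein gene S100A6 had 106778 counts in PC3 and 2 in LNCaP. Of 26 S100 and secreted antimicrobial genes, 23 were lower in LNCaP and 2 higher. S100A9 was at 1497, 1443 and 1564 TPM in PC3 (-11.24 ± 0.20) and S100A2 at 2825, 2684 and 3261 TPM (-10.73 ± 0.46). Of 19 basal, squamous and stem-like markers, 18 were lower in LNCaP and 1 higher. The exception was KRT14, at 3.16 and 0.457 TPM in LNCaP and PC3 (2.72 ± 0.41). PC3 did not hold the full basal set, since KRT5 and TP63 did not pass the filter and stood at 0.1 and 0.08 TPM there.

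The adhesion receptor CD44 was at 560, 540 and 513 TPM in PC3 and 0.87, 0.67 and 0.41 TPM in LNCaP (-11.01 ± 0.22, adjusted p = 4.99e-08). CAV1, the scaffold of caveolae, was at 167, 169 and 164 and 0.01, 0.06 and 0.04 TPM (-11.74 ± 0.25), and its partner CAV2 differed by -11.51 ± 0.33. CAVIN1 encodes the coat protein that caveolae also need. It ran the opposite way, at 4.55, 2.97 and 5.5 TPM in LNCaP and 0.0, 0.0 and 0.02 TPM in PC3. With 2 counts in PC3 against 1425 in LNCaP, its ratio was 609 (95% interval 168 to 5034). Over the list of caveolar and cytoskeletal adhesion genes, 2 of 23 were higher in LNCaP and 18 lower.

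Integrins and the basement membrane were skewed in the same direction. None of 16 integrin genes tested was higher in LNCaP by edgeR's test and 13 were lower (without LNCaP control 2, 2 were higher and 13 lower). The laminin receptor subunit ITGB4 stood at 2997, 2172 and 2825 TPM in PC3 and 2.73, 1.14 and 2.45 TPM in LNCaP (-10.63 ± 0.39). Its usual partner ITGA6 differed far less, by -1.92 ± 0.13, while ITGA3 differed by -7.28 ± 0.31. Most collagen and laminin genes were also lower in LNCaP, but by very different amounts. LAMB3, a chain of laminin-332, differed by -9.11 ± 0.67, whereas LAMA3, another chain of that trimer, was expressed in both lines at 34.4 and 105 TPM (-1.53 ± 0.24). In all, 25 of 31 collagen and laminin genes were lower in LNCaP. The 4 higher ones included LAMC1 (1.44 ± 0.15) and LAMA1 (2.99 ± 0.38).

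PC3 also carried genes of invasion and protease activity. PLAU, the urokinase gene, was at 2616, 2427 and 2538 TPM in PC3 and 0.03, 0.1 and 0.14 TPM in LNCaP (-15.03 ± 0.30), and its receptor gene PLAUR differed by -6.61 ± 0.21. AXL, a receptor tyrosine kinase, had 19958 counts in PC3 and 1 in LNCaP, a ratio of 23346 (95% interval 4190 to 922162). Of 29 mesenchymal and invasion genes, 23 were lower in LNCaP and 2 higher (without LNCaP control 2, 4 higher and 23 lower). The classical markers were modest in PC3 by level. VIM, the vimentin gene, was at 25.1, 27.3 and 29.2 TPM in PC3 and 7.22, 2.15 and 8.69 TPM in LNCaP (-2.23 ± 0.42, adjusted p = 0.00172), ZEB1 at 0.377 ± 0.0907 TPM in PC3, and CDH2, the N-cadherin gene, at 32.1 ± 1.4 TPM in PC3 against 0.0367 ± 0.0115 in LNCaP. TWIST1, a factor of mesenchymal transition, was higher in LNCaP (21.8 ± 1.36 against 5.25 ± 0.846 TPM, 2.19 ± 0.14).

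Epithelial junction genes did not follow that split. Of 34 tested, 11 were higher in LNCaP, 13 were lower and 10 did not pass, with a median of 0.03. The shares of 32.4% higher and 38.2% lower were near those of all genes, 36.6% and 35.7%. CDH1, the E-cadherin gene, was at 178, 136 and 200 TPM in LNCaP and 161, 165 and 151 TPM in PC3. The groups overlapped, and the difference of 0.02 ± 0.14 did not pass (adjusted p = 0.906). CTNNB1, the beta-catenin gene, was at 168 ± 0.924 and 165 ± 8.82 TPM (-0.01 ± 0.10, adjusted p = 0.938). EPCAM, an epithelial adhesion molecule, was present in both and higher in PC3 (95.1 and 353 TPM, -1.90 ± 0.13), as were the epithelial splicing factor ESRP1 (-1.53 ± 0.16) and the tight junction gene CLDN1 (-7.17 ± 0.33).

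**Figure D3:**
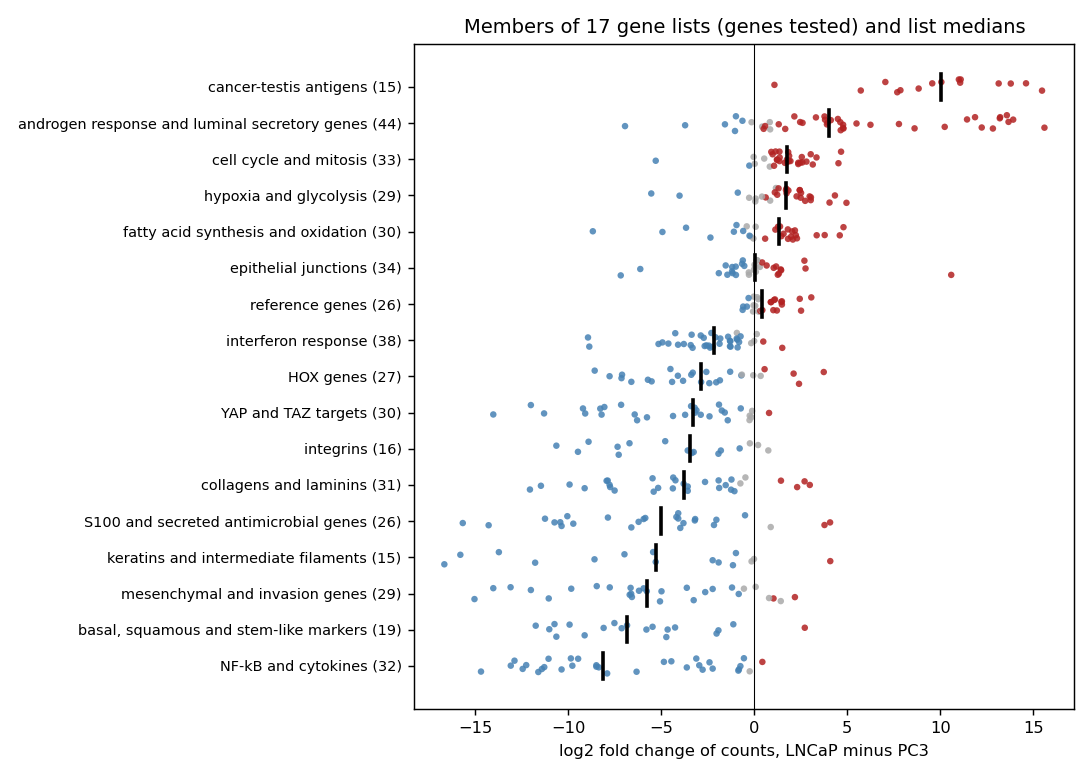
Log2 fold change of counts, LNCaP minus PC3 (horizontal axis), for every tested member of 17 gene lists, with the number tested after each name and a black bar at the list median. Red and blue points were called higher and lower in LNCaP, grey points were not called; androgen-response genes centre at 4.03, junction genes at 0.03 and cytokine genes at -8.13.

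Of 32 NF-kB and cytokine genes, 30 were lower in LNCaP and 1 higher, with a median of -8.13, or -5.95 when genes with no count in a line were set to their bound. Of these genes 8 had no count in LNCaP and passed the filter through PC3 alone, so the count carries no weight of its own, and this holds for other lists with such members. CXCL8, the interleukin-8 gene, was at 244, 310 and 234 TPM in PC3 and 0.09, 0.11 and 0.2 TPM in LNCaP (-11.05 ± 0.29, adjusted p = 1.03e-07). IL6 had 9081 counts in PC3 and 0 in LNCaP, at least 3541-fold lower. IL1A had 300 against 0 counts, at least 117-fold lower. Of the NF-kB subunit genes, RELB differed by -3.11 ± 0.18, RELA by -0.55 ± 0.12 and NFKB1, the 1 gene of the list higher in LNCaP, by 0.44 ± 0.10. TNF and CCL2 did not pass the filter in either line.

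Upstream sequences of CXCL8 and IL1A are shown because both hold an AP-1 site, a choice made after the matches were seen. They are RefSeq sequences on GRCh38.p14, 250 bases before the start, 5′ to 3′ on the gene's strand, at chr4:73740319-73740568 (plus strand) and chr2:112784494-112784743 (minus strand). Capitals mark matches to TGANTCA, a loose form of the AP-1 site with any base in the middle.
CXCL8: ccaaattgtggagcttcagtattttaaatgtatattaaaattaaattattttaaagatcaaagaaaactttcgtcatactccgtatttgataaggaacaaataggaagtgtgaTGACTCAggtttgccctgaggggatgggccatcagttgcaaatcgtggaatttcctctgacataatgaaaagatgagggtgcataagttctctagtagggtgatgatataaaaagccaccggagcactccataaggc
IL1A: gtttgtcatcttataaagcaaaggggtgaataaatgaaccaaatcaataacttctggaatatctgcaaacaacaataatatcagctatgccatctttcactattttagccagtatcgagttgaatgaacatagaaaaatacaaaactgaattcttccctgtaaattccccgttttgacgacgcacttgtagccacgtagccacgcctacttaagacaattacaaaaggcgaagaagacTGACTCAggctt
The CXCL8 site lay 137 to 131 bases and the IL1A site 12 to 6 bases before the start. Of 13 PC3 line markers with an upstream sequence, 3 (23.1%) held the loose form on either strand, against 1801 of 27305 promoters in all (6.6%). The other marker was LCN2, which held TGAATCA where CXCL8 and IL1A held TGACTCA. The motif reads alike on both strands, so each match was counted once. As for the kallikreins, the shares describe letters in 250 bases only, and the marker list was chosen with earlier results known. Whether AP-1 acts at these sites was not tested.

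Of the AP-1 and immediate early genes, 3 of 24 were higher in LNCaP and 16 lower. The subunits split. JUND was higher in LNCaP (290 and 39.3 TPM, 2.86 ± 0.41), JUNB higher in PC3 (39.8 and 270 TPM, -2.79 ± 0.16), and JUN and FOSL2 did not pass (adjusted p = 0.668 and 0.688). DUSP6, the gene of a phosphatase that acts on ERK, was higher in PC3 (-6.42 ± 0.18), as were the ETS genes ETV4 (-10.24 ± 0.19) and ETV5 (-6.78 ± 0.17). ETV1 of the same ETS subfamily was higher in LNCaP, at 145, 139 and 162 TPM against 10.1, 11.8 and 11.3 TPM in PC3 (3.50 ± 0.12, adjusted p = 2.1e-07).

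For the YAP and TAZ pathway, which senses adhesion and tension, 25 of 30 genes were lower in LNCaP and 1 was higher. The targets ANKRD1 (-9.20 ± 0.22) and CCN1 (-5.76 ± 0.12) were far apart. YAP1 itself was at 68.6 ± 30.9 and 68.3 ± 1.63 TPM in LNCaP and PC3 and did not pass (adjusted p = 0.743), while WWTR1, which encodes TAZ, was higher in PC3 (-3.20 ± 0.26).

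Among receptor tyrosine kinase genes, 11 of 31 (35.5%) were higher in LNCaP and 15 (48.4%) lower, against 36.6% and 35.7% of all genes. MET, the hepatocyte growth factor receptor, was at 95.8, 99.4 and 85.7 TPM in PC3 and 0.37, 0.33 and 0.15 TPM in LNCaP (-9.20 ± 0.16), and its relative MST1R differed by -8.88 ± 0.31. EGFR was higher in PC3 by less (-2.23 ± 0.55). LNCaP had more FGFR3 (5.32 ± 0.26) and IGF1R (1.67 ± 0.20). ERBB2 was at 89.4 ± 12.5 TPM in LNCaP and 89.4 ± 3.23 TPM in PC3, with a difference of 0.02 ± 0.13 that did not pass (adjusted p = 0.881).

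Interferon response genes were lower in LNCaP for 32 of 38 and higher for 2, with a median of -2.15. JAK1, the kinase that interferon receptors share, was at 3.85, 1.5 and 3.4 TPM in LNCaP and 41.4, 39.9 and 38.7 TPM in PC3 (-4.09 ± 0.30, adjusted p = 1.01e-05), and the groups did not overlap. IRF9, a DNA-binding factor of the response, differed by -3.41 ± 0.15 and the antiviral effector OAS1 by -4.61 ± 0.17. The receptor chains IFNAR1 and IFNGR1 did not pass (adjusted p = 0.294 and 0.425). In antigen presentation 17 of 26 genes were lower in LNCaP and 5 higher. The immunoproteasome subunit PSMB8 differed by -5.74 ± 0.19 and the class I gene HLA-E by -2.89 ± 0.13, whereas HLA-C did not pass (adjusted p = 0.16). Reads of HLA genes are shared among loci and depend on alleles, so their values are uncertain. NLRC5, a transactivator of class I genes, was higher in LNCaP (3.10 ± 0.52).

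CTNNA1 and ETV1, known to be altered in these lines, were examined with their neighbours, in GENCODE 29 coordinates on GRCh38. CTNNA1, the alpha-catenin gene (ENSG00000044115.21, chromosome 5, 138610967 to 138935034), had 57959 counts over the LNCaP libraries and 32 over PC3 (10.59 ± 0.41, adjusted p = 4.27e-07). To its left ETF1, a translation release factor gene, was at 94.9 and 57.1 TPM in LNCaP and PC3 (0.76 ± 0.17). To its right SIL1, a nucleotide exchange factor gene, had 13599 counts in LNCaP and 917 in PC3 (3.67 ± 0.15), and PAIP2, a translation regulator gene farther on, differed by 0.92 ± 0.12. The nearest gene on the left, the mitochondrial chaperone gene HSPA9, differed by -0.34 ± 0.11, a call lost without LNCaP control 1 or 3 or PC3 control 3 (adjusted p = 0.0597 to 0.0958). REEP2, farther left, differed by -3.19 ± 0.30. The immediate early gene EGR1, also on the left, was low in both lines, with 101 counts in LNCaP and 22 in PC3 (1.94 ± 0.41).

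In the growth pathway of PI3K, 13 of 26 genes were higher in LNCaP and 8 lower. The kinase genes AKT1 and AKT2 were higher in LNCaP by 1.03 ± 0.13 and 0.81 ± 0.10. INPP4B, a phosphatase that restrains the pathway, was higher in PC3 (-2.45 ± 0.12), and the regulatory subunit PIK3R1 higher in LNCaP (4.55 ± 0.14).

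Next to ETV1 (ENSG00000006468.14, chromosome 7, 13891228 to 13991425), the kinase gene DGKB was also higher in LNCaP (8.05 ± 0.25). Tumour suppressor genes with large differences were KDM6A, a histone demethylase on the X chromosome (3.48 ± 0.11), and CDKN2B, a cell-cycle inhibitor (-6.08 ± 0.32).

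Cancer-testis antigens, germ cell genes switched on in many tumours, were a LNCaP feature. All 15 of 29 that passed the filter on low counts were higher in LNCaP. They passed mostly through their LNCaP level, so their count carries no weight of its own. MAGEA2 had 18453 counts in LNCaP and 0 in PC3, at least 5258-fold higher. PRAME was expressed in both lines, at 54.2 ± 0.465 and 23.9 ± 2.33 TPM (1.09 ± 0.11). MAGE and GAGE genes have near-identical copies, so how reads were divided among them is uncertain. Few neuroendocrine and neuronal markers passed the filter (9 of 27), and CHGA and INSM1 were not among them. Of those 9, 8 were higher in LNCaP and 0 lower, with a median of 2.58. Without LNCaP control 2, 8 of 11 were higher and 1 lower. The 27 markers summed to 187 to 454 TPM in LNCaP and 65.1 to 68.5 TPM in PC3. SYT4, a vesicle protein gene, was the exception in size with 24684 counts against 3, a ratio of 7034 (95% interval 2407 to 34111). NCAM2, a neural adhesion molecule that the list did not hold, was at 269, 176 and 310 TPM in LNCaP and 0.05, 0.03 and 0.1 TPM in PC3 (11.69 ± 0.26).

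Positional identity genes differed as well. Of 27 HOX genes tested, 20 were lower in LNCaP and 4 higher. The higher ones were HOXB13 and 3 genes of the C cluster, HOXC6 (2.41 ± 0.18), HOXC9 (2.12 ± 0.27) and HOXC13. The posterior A cluster was almost restricted to PC3, with HOXA13 at -8.57 ± 0.32, HOXA9 at -7.13 ± 0.25 and HOXA11 at -7.10 ± 0.28. In the Wnt pathway 19 of 27 genes were lower in LNCaP and 5 higher. DKK1, a secreted inhibitor, was at 773, 713 and 763 TPM in PC3 and 0.0, 0.45 and 0.17 TPM in LNCaP (-11.48 ± 0.68), while the pathway's feedback targets AXIN2 (5.76 ± 0.39) and NKD1 (4.55 ± 0.30) and the nuclear factor LEF1 (350 counts against 3, a ratio of 99.7 (95% interval 33.8 to 486)) were higher in LNCaP. Among chromatin and RNA-binding genes, PC3 held more of the fetal-type genes HMGA2 (-8.73 ± 0.38) and IGF2BP2 (-9.21 ± 0.41) and of the remodeller SMARCA1 (-7.41 ± 0.16). EZH2, the Polycomb methyltransferase, was higher in LNCaP by 0.83 ± 0.17. DNMT1, the maintenance methyltransferase, did not pass with all libraries (0.09 ± 0.25, adjusted p = 0.754) and was called lower in LNCaP without LNCaP control 2 (adjusted p = 0.0104).

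Of 29 surface antigens used as drug targets, 8 (27.6%) were higher in LNCaP and 17 (58.6%) lower, against 36.6% and 35.7% of all genes. Besides FOLH1 and STEAP1, the serine protease HPN was near-restricted to LNCaP (10.66 ± 0.48). CEACAM5 had 4136 counts in PC3 against 2, a ratio of 2419 (95% interval 669 to 19982). NECTIN4 (13.7 ± 4.08 and 14.4 ± 1.16 TPM) and ERBB2 did not pass.

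TRPM4, a calcium-activated channel for sodium and potassium, gave a different answer by unit. Its TPM was 107, 91.1 and 98.6 in LNCaP and 50.6, 43 and 42.3 in PC3, with no overlap and a log2 ratio of the means of 1.13. Its expected counts were 5180, 5751 and 5110 against 3917, 3035 and 3837, or 108 to 119 and 75.6 to 91.7 CPM, and the count-based difference was only 0.35 ± 0.11 (adjusted p = 0.0228). That call was lost without LNCaP control 1 (adjusted p = 0.0834), PC3 control 2 (0.0734) or PC3 control 3 (0.066). On log2(TPM + 1), limma gave 1.11 (adjusted p = 0.000141). TPM divides by an effective length that RSEM estimates from the transcripts in use, so the 2 units differ where that length differs. Among 9465 genes of at least 5 TPM in both lines, the TPM ratio departed from the count fold by over 1.5 times for 141 (1.49%), and only 0.718% had a larger gap than TRPM4. Transcript-level values were not analysed here.

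Of 6 genes tested among TRPM channels and their SUR1 and KATP partners, 5 were higher in LNCaP, TRPM4 included, and 0 lower. TRPM8, the cold-sensing channel and an androgen-responsive gene, was at 112, 48.2 and 108 TPM in LNCaP and 0.08, 0.02 and 0.16 TPM in PC3 (10.24 ± 0.56). TRPM2 differed by 1.68 ± 0.20 and TRPM7 by 0.41 ± 0.15. The TRPM7 call was lost without any 1 library other than LNCaP control 2 (adjusted p = 0.0617 to 0.136) and on TPM by limma (0.214). ABCC8, the SUR1 gene, had 159 counts against 1, a ratio of 136 (95% interval 24 to 5402), and the channel gene KCNJ11 did not pass (-0.20 ± 0.21, adjusted p = 0.418). Of 37 sodium, potassium and chloride transport genes, 13 were higher in LNCaP and 19 lower. The calcium-activated chloride channel ANO1 was at 141, 133 and 137 TPM in PC3 and 0.0, 0.02 and 0.13 TPM in LNCaP (-12.32 ± 0.35), and the calcium-activated potassium channel KCNN4 differed by -11.30 ± 0.37. The bicarbonate cotransporter SLC4A4 was nearly confined to LNCaP by level (32.4 ± 7.81 against 0.0133 ± 0.0153 TPM). The sodium pump beta subunit gene ATP1B1 was higher in PC3 (-1.97 ± 0.13) and ATP1B3 higher in LNCaP (1.96 ± 0.11). LRRC8A, the obligatory subunit of volume-regulated anion channels, was at 20.1 ± 2.38 and 36.9 ± 3.68 TPM (-0.89 ± 0.13).

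More executors of lytic cell death were higher in PC3 than in LNCaP. Of 29 such genes and caspases, 17 (58.6%) were lower in LNCaP and 8 (27.6%) higher, where 35.7% and 36.6% of all genes were. The median difference was small, at -0.38. GSDMD, the pore-forming gasdermin of pyroptosis, was at 140 ± 21.5 TPM in PC3 and 1.97 ± 0.602 TPM in LNCaP (-6.62 ± 0.38, adjusted p = 3.16e-06). GSDME differed by -5.57 ± 0.37 and MLKL, the pore former of necroptosis, by -4.14 ± 0.32. PYCARD, the inflammasome adaptor, had 806 counts in PC3 and 0 in LNCaP, at least 314-fold lower. NINJ1, which ruptures the plasma membrane late in lytic death, was higher in LNCaP (91.4, 104 and 91.9 TPM against 43.2, 31.8 and 45.1 TPM, 1.23 ± 0.17). GPX4, a guard against ferroptosis, was at 486 ± 16.3 and 451 ± 62.3 TPM and did not pass (adjusted p = 0.647), while ACSL4, an enzyme that supplies lipids for ferroptosis, was higher in PC3 (-4.97 ± 0.14).

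Genes of drug handling showed a few very large differences. GSTP1, a glutathione transferase often silenced in prostate cancer, was at 293, 240 and 315 TPM in PC3 and 0.35, 0.46 and 0.3 TPM in LNCaP (-9.58 ± 0.24). CYP1B1 (-12.13 ± 0.33) and the efflux pump ABCC3 (-12.20 ± 0.57) were also higher in PC3, and ABCC4 higher in LNCaP (2.47 ± 0.17). The carboxylesterase CES1 did not pass the filter. CES2 was at 26.5 ± 3.23 and 23.1 ± 1.87 TPM, a difference of 0.38 ± 0.12 with an adjusted p of 0.0238 that was lost without PC3 control 1 (0.076) or 2 (0.0833) and on TPM by limma (0.222). MAOA, a monoamine oxidase, was at 186, 155 and 181 TPM in LNCaP and 0.14, 0.15 and 0.09 TPM in PC3 (10.16 ± 0.20).

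Of 30 fatty acid genes, 18 were higher in LNCaP and 8 lower. FASN, the fatty acid synthase, was at 570 and 138 TPM (2.08 ± 0.15), and AMACR, the racemase used as a prostate cancer stain, at 129 and 4.21 TPM (4.80 ± 0.32). FABP5, a fatty acid carrier, was higher in PC3 (-8.67 ± 0.38). In cholesterol synthesis 16 of 29 were higher in LNCaP and 6 lower. SREBF1, a transcription factor of lipid synthesis, was among them (2.44 ± 0.18). Prostate epithelium is known for polyamine synthesis and zinc storage. Of 24 genes of polyamine, zinc and citrate metabolism, 14 were higher in LNCaP and 3 lower, with a median of 0.87. Without LNCaP control 2 the counts were 14 and 7 and the median 0.51. AMD1, a polyamine enzyme, was at 494 and 37.3 TPM (3.68 ± 0.19), and the zinc exporter SLC30A4 at 94.9 and 1.12 TPM (6.20 ± 0.22).

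Glycolysis and hypoxia genes were higher in LNCaP for 20 of 29 and lower for 3, with a median of 1.73. LNCaP control 2 bears on this list. Its summed level ranged from 10403 to 27333 TPM over the LNCaP controls, the lowest being control 2, and from 5180 to 5677 TPM in PC3. ENO1, a glycolytic enzyme, was at 4092, 1563 and 4365 TPM in LNCaP and 486, 452 and 526 TPM in PC3 (2.74 ± 0.35), above PC3 in all 3. VEGFA, the angiogenic factor, was at 513, 53.9 and 573 TPM in LNCaP and 378 ± 14.5 TPM in PC3, so that control 2 lay below every PC3 library and the other LNCaP controls above. It did not pass with all 6 libraries (0.08 ± 0.68, adjusted p = 0.922) and was called higher in LNCaP without LNCaP control 2 (adjusted p = 4.31e-05). NDRG1, a stress-responsive gene, gave 603, 52.4 and 681 TPM against 252, 220 and 243 TPM, with an adjusted p of 0.312 and of 2.32e-08 without control 2. DDIT3, a transcription factor of the integrated stress response, behaved alike, at 264, 26.4 and 341 TPM in LNCaP and 62.4, 56.3 and 57 TPM in PC3 (adjusted p = 0.0534, and 1.53e-10 without control 2). Without that library 25 of 29 hypoxia and glycolysis genes were higher in LNCaP. ADM and CA9, other genes known to respond to hypoxia, were higher in PC3 (-5.53 ± 0.35 and -4.01 ± 0.85).

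Cell-cycle genes showed the reverse pattern within LNCaP. MCM2, a replication helicase subunit, was at 38.7, 103 and 44.7 TPM in LNCaP, highest in control 2, and at 7.83, 8.76 and 8.43 TPM in PC3 (3.04 ± 0.41). PCNA, the replication clamp, was at 155, 348 and 161 and 37.6, 34.6 and 37.3 TPM (2.59 ± 0.35). Both stayed above PC3 in all 3 LNCaP libraries. Of 33 cell-cycle genes 27 were higher in LNCaP and 2 lower, and without control 2 the counts were 28 and 5 and the median moved from 1.76 to 1.20. The part of control 2's state in these differences was not tested. CDK6 went against the list, at 0.313 and 10.8 TPM in LNCaP and PC3 (-5.29 ± 0.21).

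**Figure D4:**
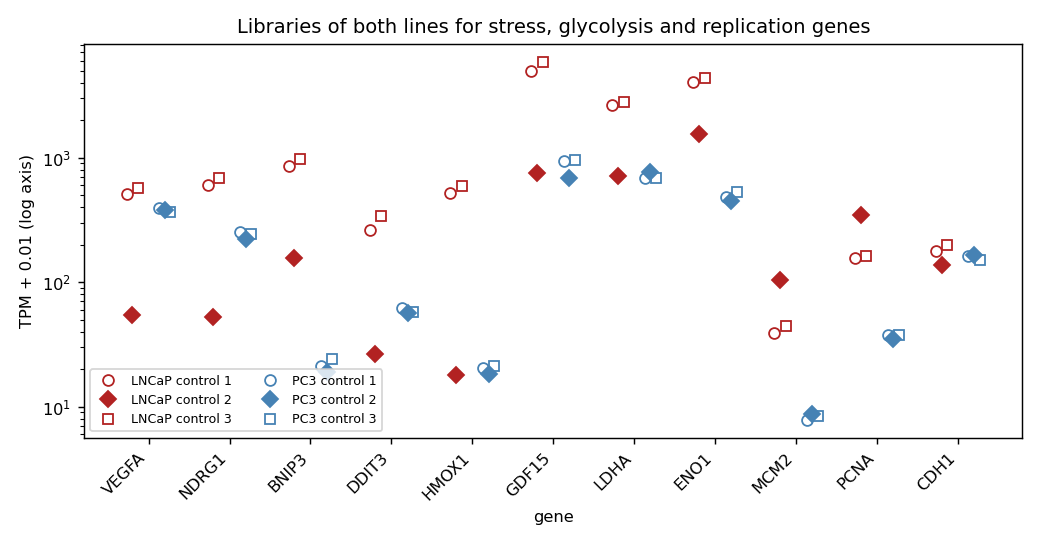
TPM + 0.01 on a log axis for 11 genes in each of the 6 libraries (red LNCaP, blue PC3), with the filled diamonds marking replicate 2 of each line. LNCaP control 2 lies below both other LNCaP controls for VEGFA, NDRG1, BNIP3, DDIT3, HMOX1, GDF15, LDHA and ENO1 and above them for MCM2 and PCNA, while the PC3 libraries lie close together.

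Genes that many studies use as references did not all hold still. Of 26 tested, 14 were higher in LNCaP, 4 were lower and 8 did not pass, with a median of 0.42. The share called was 69.2%, where 72.3% of all genes were called. Their median absolute difference was smaller, at 0.61 against 1.1 over all genes tested. GAPDH was at 5825, 3769 and 6172 TPM in LNCaP and 968, 822 and 1013 TPM in PC3 (2.45 ± 0.19, adjusted p = 1.62e-05). ACTB (0.24 ± 0.19) and GUSB (-0.03 ± 0.10) did not pass. Mitochondrially encoded genes made up 5.25 to 7.21% of counts in PC3 and 3.36 to 3.63% in LNCaP, and 8 of 13 were lower in LNCaP.

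Calls were not spread evenly over the genome. Over 14403 protein-coding genes, 37.3% were higher and 35.9% lower in LNCaP, with a median of 0.04. Chromosome 9 had the highest median (0.59), with 54.5% of 583 genes higher and 23.8% lower. Chromosomes 4 and 16 followed (0.54 and 0.53). Chromosome 21 had the lowest median (-0.63), with 23.1% of 143 genes higher and 55.9% lower, and chromosomes 7 (-0.39) and 2 (-0.34) came next. Copy number was not analysed here.

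The same contrast was made in the 6 parental libraries collected after 10 µM Acetalax for 4 h, which share no library with the controls. There 13974 of 18656 genes tested (74.9%) were called, and 16369 genes without LNCaP Acetalax replicate 3. The LNCaP libraries of this set also lay apart for stress genes, with VEGFA at 476 ± 353 TPM and HMOX1 at 299 ± 261 TPM. In PC3 these were at 455 ± 35.3 and 20.8 ± 1.39 TPM. Across 18170 genes tested in both, the log2 differences had a Pearson correlation of 0.971 (a description over genes, which are not independent replicates). Of 13159 genes called in the controls, 12863 (97.8%) had the same sign. HOXB13 differed by 3.64 ± 0.08 there and KLK3 by 15.11 ± 0.32, close to the control values, and TRPM4 by -0.16 ± 0.08 (adjusted p = 0.118).

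The derivatives labelled CE (chronic exposure), grown under rising Acetalax and then kept without it, were compared in the same way. Between their untreated controls 13030 of 17023 genes (76.5%) were called, with a 49.2% share of higher calls that fell to 39.3% by limma on log2(TPM + 1), 36.6% without its filter and 40.9% with all 24 libraries in the fit, but only 4302 (25.3%) at least 2-fold. Across 15401 genes tested in both sets, the log2 line differences correlated at 0.065, and 55.0% of 10894 genes called between the parental lines had the same sign. Of those 10894 genes 78.3% were also called between the CE controls, or 72.1% of the CE calls. The line difference differed between CE and parental controls, by the interaction term over the 12 control libraries, for 12863 of 20590 genes (62.5%). CTNNA1, with 32 counts over the 3 PC3 parental controls, was at 170 ± 3.14 TPM in the libraries labelled PC3 CE and 122 ± 1.46 TPM in those labelled LNCaP CE (interaction -10.97 ± 0.32, adjusted p = 2.86e-11). KLK3 was at 0.777 ± 1.06 TPM in LNCaP CE and HOXB13 at 0.477 ± 0.129 TPM, while CD44 was at 1.6 ± 0.566 TPM in PC3 CE. VIM was at 4128 ± 139 and 1972 ± 27.5 TPM in LNCaP CE and PC3 CE. The libraries labelled CE go against the markers of the line in their label. No result above on LNCaP and PC3 rests on them.

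**Figure D5:**
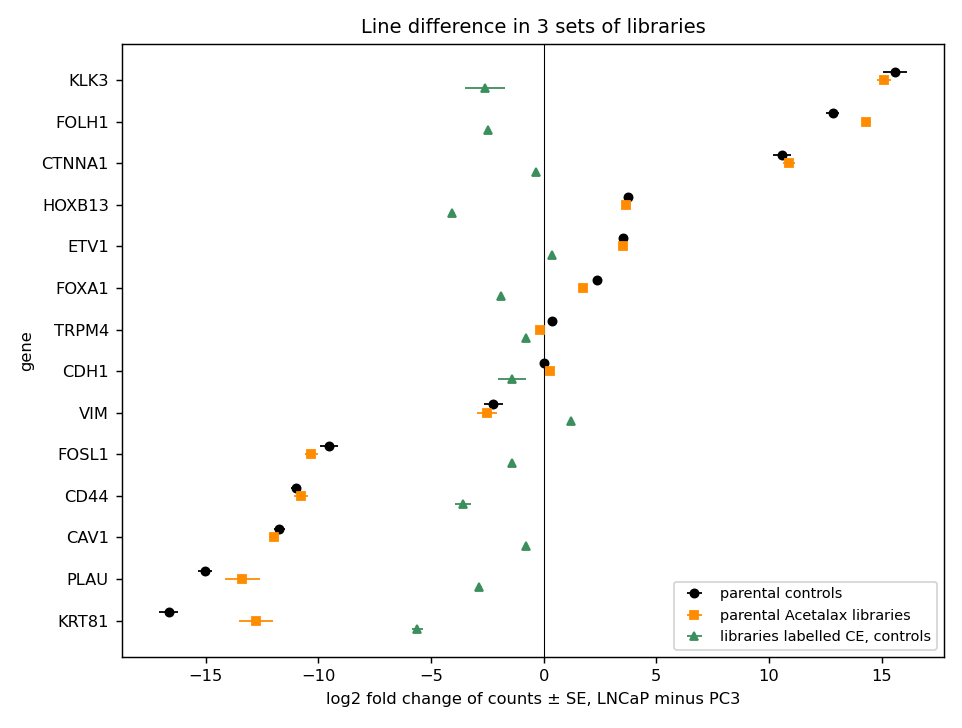
Log2 fold change of counts ± SE, LNCaP minus PC3, for 14 genes in the parental controls (black circles), the parental Acetalax libraries (orange squares) and the control libraries labelled CE (green triangles). The parental sets lie together for most genes and differ most for KRT81 and PLAU, which have few LNCaP counts, while the CE values lie elsewhere, such as HOXB13 at 3.74, 3.64 and -4.05.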

How the data were processed

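RNA was poly(A)-selected, made into directional libraries and sequenced in pairs of 100 bases on an Illumina NextSeq instrument, per the labels' protocols. The authors used FastQC, STAR 2.7 and RSEM on GRCh38/hg38, per the submitters' processing notes, with no annotation release or strand setting named there. The deposited tables hold RSEM expected counts and TPM for 60660 features. RSEM divides reads that fit several transcripts, so near-identical genes share them.

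Expected counts were rounded to whole numbers (10.2% were not whole, and no library total moved by more than 0.000125%). Libraries were grouped by their labels. The 6 libraries alone entered edgeR 4.0.16 (R 4.3.3): filterByExpr at a minimum count of 10, TMM, the quasi-likelihood test and Benjamini-Hochberg adjustment, with calls at an adjusted p under 0.05. The standard error is the log2 fold change divided by the root of the test's F. An exact permutation of 3 against 3 samples has 10 splits and cannot go below p = 0.1, so it was not used. Alternatives used RLE size factors, no filter, DESeq2 1.42.0, limma 3.58.1 on log2(TPM + 1) or log2(TPM + 0.1) with a mean of at least 0.5 TPM or no filter, a replicate block, more libraries in the fit, or each library left out. Scripts were tested on simulated data.

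Where a line had 0 counts in all, the fold is a lower bound against 3 counts over the group, and with 1 to 3 counts an exact 95% interval is given. Coordinates are from GENCODE 29, in which 58429 features matched, and upstream sequences from RefSeq on GRCh38.p14, with 1 start per gene. The 48 gene lists (1242 symbols, 1241 matched) and the genes examined were chosen with earlier results of these data known. Genes named outside the lists were, in each direction, the 10 with the widest fold (at least 20 TPM in the higher group, 10 counts in the lower) and the 10 with the highest level among those at least 32-fold apart. Genes of chromosome Y, XIST and some other genes are not reported here. Each table also has 1 column that holds no sample.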

Additional observations from a re-analysis of the deposited data

Results flagged for a closer look

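The line difference of 8 marker genes was itself different in the control libraries labelled CE. The values below are the CE line difference minus the parental line difference on the log2 scale, from edgeR's interaction term over 12 control libraries, with Benjamini-Hochberg adjusted p-values. Genes high in parental LNCaP had negative values, KLK3 at -18.22 ± 1.60 (adjusted p = 7.49e-07), FOXA1 at -4.26 ± 0.12 (adjusted p = 2.42e-11) and HOXB13 at -7.79 ± 0.20 (adjusted p = 1.12e-11). Genes high in parental PC3 had positive values, CAV1 at 10.95 ± 0.21 (adjusted p = 1.9e-12), CD44 at 7.42 ± 0.59 (adjusted p = 2.88e-07), FOSL1 at 8.11 ± 0.32 (adjusted p = 3.9e-10) and VIM at 3.44 ± 0.43 (adjusted p = 1.84e-05). TRPM4 was at -1.14 ± 0.13 (adjusted p = 1.04e-05), with 9.42 ± 0.478 TPM in LNCaP CE and 17.3 ± 1.78 TPM in PC3 CE. Both CE sets held CTNNA1 at over 100 TPM, the gene with 32 counts in all 3 parental PC3 controls. Where these differences come from was not tested.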

How the results depend on the processing

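The count of called genes between the parental controls, 13537 as reported, ranged from 12177 (limma on log2(TPM + 0.1)) to 15430 (all 24 libraries in 1 fit) over the alternatives in tool, scaling, filter and libraries, and from 12548 (without PC3 control 1) to 15615 (without LNCaP control 2) when 1 library was left out. No alternative moved it, or the counts of the other 3 contrasts, by over 1.5 times. Same-numbered LNCaP and PC3 controls deviated together no more than others (correlations of 0.07, 0.03 and -0.09). With 3 libraries in each line this cannot exclude a pairing by number. The fit with the replicate number as a block called 12810. Of the genes named, DNMT1 turned from 0.28 without LNCaP control 1 to -0.29 without LNCaP control 2. TRPM4 kept its direction and lost its call without LNCaP control 1, PC3 control 2 or PC3 control 3. CES2 lost its call under 6 alternatives, the replicate block among them (adjusted p = 0.0609). Among the alternatives run, VEGFA, NDRG1 and ORAI1 were called only without LNCaP control 2, and DDIT3 without LNCaP control 2, with no low-count filter and with 12 parental libraries. The cause was not tested. Of 48 list medians, most shifts beyond the replicate spread came with TPM or without LNCaP control 2. Low counts limit the folds of genes near 0 in a line, and on log2(TPM + 1) those folds are smaller by construction.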

Other observations

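Of 29 calcium entry and store genes, 10 (34.5%) were higher in LNCaP and 14 (48.3%) lower, where 36.6% and 35.7% of all genes were. The plasma membrane channel CACNA1D was at 4.17, 4.78 and 4.89 TPM in LNCaP and 0.0, 0.0 and 0.07 TPM in PC3 (7.97 ± 0.61), and the calcineurin subunit PPP3CA at 318 ± 36.7 and 20.2 ± 1.88 TPM (3.90 ± 0.13). TRPC1 (-3.51 ± 0.38) and the store receptor ITPR3 (-1.58 ± 0.13) were higher in PC3. The pore of store-operated entry, ORAI1, did not pass (-0.15 ± 0.22, adjusted p = 0.542) but was called lower in LNCaP without LNCaP control 2 (adjusted p = 0.00968), and its sensor STIM1 was higher in PC3 (-0.54 ± 0.10). Of 25 targets of the redox factor NRF2, 16 were higher in LNCaP and 7 lower, with the quinone reductase NQO1 at 1.13 ± 0.13 and, against that direction, the glutathione synthesis gene GCLC at -1.59 ± 0.16.

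Of 24 unfolded protein response genes, 11 (45.8%) were higher in LNCaP and 7 (29.2%) lower, against 36.6% and 35.7% of all genes. The chaperone HSPA5 was level at 512 ± 43.9 and 519 ± 18.5 TPM (adjusted p = 0.857), the secretory factor CREB3L4, an androgen-responsive gene, was higher in LNCaP (2.51 ± 0.21), and its relative CREB3L1 higher in PC3 (-6.64 ± 0.49). For the integrated stress response and amino acid genes the counts were 11 (36.7%) and 8 (26.7%) of 30 with all 6 libraries. Without LNCaP control 2 they were 15 and 9. CBS, a sulphur amino acid enzyme, was higher in LNCaP (2.18 ± 0.10), and the amino acid exchanger SLC7A5 higher in PC3 (-4.04 ± 0.50). Of 21 ETS factor genes, 9 (42.9%) were higher in LNCaP and 10 (47.6%) lower, against 36.6% and 35.7% of all genes. The epithelial member EHF differed by 2.23 ± 0.11 and ETS1 by -5.59 ± 0.15. Cytosolic ribosomal protein genes, which make subunits in fixed proportion, did not move as 1 group. Of 36 tested, 14 were higher in LNCaP and 8 lower, or 61.1% called, where 72.3% of all genes were. Their median absolute difference was small, at 0.41 against 1.1 over all genes tested. Members with larger differences were RPS20, at 2266 and 774 TPM in LNCaP and PC3 (1.49 ± 0.13), and RPL30, at 2522 and 4870 TPM.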
